A study of Rattus norvegicus with 12 samples.

Results

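AMP-activated protein kinase (AMPK) is the enzyme by which a cell senses a shortage of ATP. The genes described here are those of its subunits, *Prkaa1*, *Prkaa2*, *Prkab1*, *Prkab2*, *Prkag1*, *Prkag2* and *Prkag3*, and of the kinases upstream of it, *Stk11* (LKB1) and *Camkk2*. These 9 genes were among 16581 genes that could be named on the array. A probe was assigned to a gene through its RefSeq accession, ignoring the version, by the symbol that accession has in the rat annotation GRCr8. This gave 13 of 45598 probes, since *Prkaa1*, *Prkab2*, *Prkag2* and *Stk11* had 2 probes each.

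The RNA came from myotubes formed by fusion of L6 cells, myoblasts of rat skeletal muscle. They were exposed for 24 h to 60 µM GR24, a synthetic analog of the plant hormones called strigolactones, to 60 µM pinosylvin or to 60 µM resveratrol. The controls received the solvent, dimethyl sulfoxide (DMSO). Each group had 3 arrays of 1 colour, 12 in all. The design text of the series describes 3 independent experiments with cells of a single batch. The p-values rest on the spread between arrays of a group, over the 4 groups, and by default do not pair arrays by experiment. Replicates 1 and 2 of each group were on slide 1 and replicate 3 was on slide 2. A difference on slide 2 is therefore between single arrays, and slide 2 cannot be told apart from replicate 3. The labels give 6 days of differentiation, whereas the methods of the study give a day more. Pinosylvin and resveratrol are stilbenes that differ by a hydroxyl group on resveratrol.

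AMPK is a complex of a catalytic alpha, a scaffolding beta and a nucleotide-binding gamma subunit, each encoded by more than a single gene. Binding of AMP to the gamma subunit favours phosphorylation of the alpha subunit by LKB1, while CaMKK2 phosphorylates it when calcium rises. In skeletal muscle, active AMPK is known to promote glucose uptake and fatty acid oxidation, and the array measures RNA only, not this activity.

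A level is the log2 of the background-subtracted signal of a probe relative to the 75th percentile of its array, so that a negative level lies below that percentile. Levels of different probes cannot be ranked against each other. Testing required a signal well above background, by the scanner software, on every array of some group, and 24279 probes met this, including 12 of the 13 described here. The probe of *Prkag3* was not tested. Differences were tested with limma, with Benjamini-Hochberg adjusted p-values over all tested probes and a threshold of 0.05, and "rose" and "fell" are used for differences that passed it. The number of arrays limits the precision.

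A gene with several tested probes was represented by the brightest on average, and the second probes are given beside it. With GR24, 6 of the 8 tested genes passed, against 57.1% of all tested probes. The 3 higher genes were *Prkag1*, *Prkag2* and *Stk11* (background 31.5%), and the 3 lower genes were *Prkaa2*, *Prkab2* and *Camkk2* (background 25.5%). With pinosylvin, 1 of 8 passed (background 16.6%), with no gene higher (8.28%) and *Prkag2* lower (8.27%). With resveratrol, 2 of 8 passed (background 17.0%), *Prkag2* being higher (7.99%) and *Prkaa2* lower (8.99%). As shares of 8, where 1 gene is 12.5%, these counts are 75%, 12.5% and 25%, against 62.8%, 18.4% and 18.9% over 10741 genes with 1 probe each. All 3 lie within 1 gene of those shares, and *Prkaa2* was tested only through its high control signals, so the counts support no change of the genes as a set. The 3 comparisons share the control arrays. A block for the replicate number gave 2 of 8 with pinosylvin, 1 of them higher (*Prkab2*), where 6947 of 24279 probes passed. The median change of the 8 genes was 0.12 with GR24, 0.009 with pinosylvin and 0.0075 with resveratrol, against 0.0268, 0.0543 and 0.0104 over all tested probes.

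**Figure D1:**
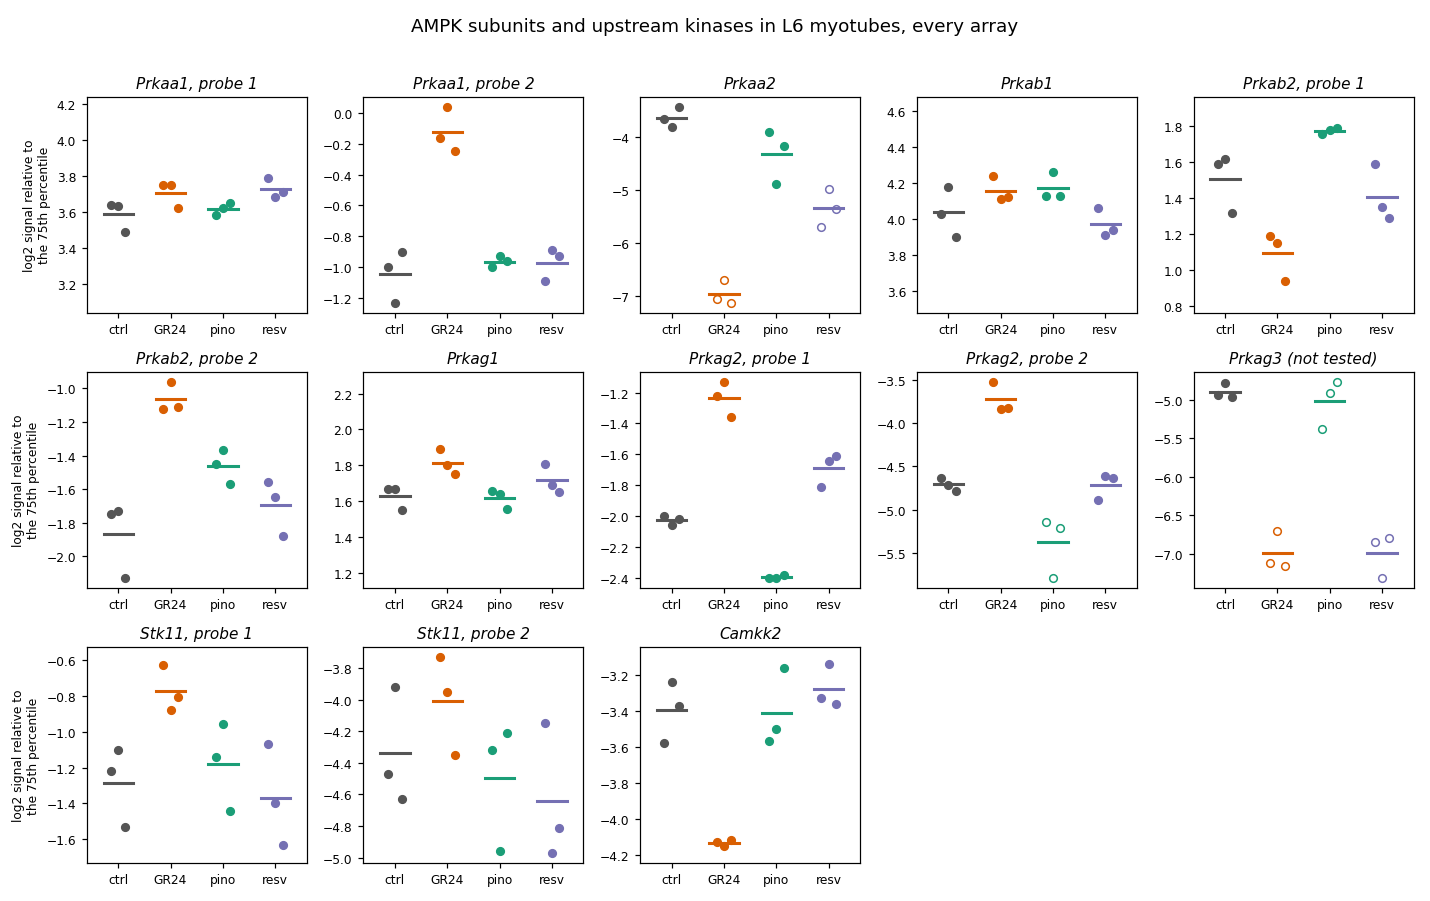
Level of each of the 13 probes on every array, as log2 signal relative to the 75th percentile of the array, in control, GR24, pinosylvin and resveratrol myotubes. Each panel has its own axis, horizontal lines are means of 3 arrays, probe 1 is the one that represents its gene, and open circles mark groups in which no array was well above background. The GR24 arrays of *Prkaa2* lie between -7.12 and -6.69, below every control array.

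The catalytic subunits were measured first. *Prkaa2* encodes alpha 2, the main catalytic isoform of adult skeletal muscle. Its levels were -3.65, -3.81 and -3.42 on the control arrays and -7.05, -6.69 and -7.12 on the GR24 arrays. They were -3.89, -4.88 and -4.16 with pinosylvin and -5.70, -4.97 and -5.35 with resveratrol. The arrays of each compound lay below the controls without overlap.

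*Prkaa2* was well above background on 3 of 3 control arrays, on 2 of 3 pinosylvin arrays and on none of the GR24 or resveratrol arrays. A change against such a dim group is given as a bound, the mean of the brighter group over the higher, per array, of the dim probe's own signal and the lowest signal of any probe well above background. By that bound *Prkaa2* was at least 4.22-fold lower with GR24 than in the controls (limma adjusted p = 1.52e-06), and with resveratrol at least about 3.3-fold lower (0.00121). It met the requirement for testing only through the control group, where it is brightest. Both calls were kept in each of 14 processing alternatives, no filter on dim probes being 1 of them, with adjusted p up to 0.000569 and 0.0334. With pinosylvin the difference of -0.68 (95% interval -1.25 to -0.12) did not pass in limma (adjusted p = 0.0994). In bulk RNA, fewer cells that express a gene and less of its RNA per cell cannot be told apart.

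Compared directly, *Prkaa2* was higher with pinosylvin than with resveratrol, by at least 2.04-fold (adjusted p = 0.0232). This call was lost without pinosylvin replicate 1 (adjusted p = 0.0784), resveratrol replicate 1 (0.0790), pinosylvin replicate 3 (0.0719) or resveratrol replicate 3 (0.0654). It was also lost with normexp background correction (adjusted p = 0.0528, and 0.0994 after quantile normalization) and in the deposited series table (0.167). It was lost as well with no filter on dim probes (adjusted p = 0.0650), when only those 6 arrays were fitted (0.0799) and on slide 1 alone (0.146). Against pinosylvin, GR24 was at least 2.62-fold lower (adjusted p = 9.33e-06). Between GR24 and resveratrol, both not well above background, no fold is given.

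*Prkaa1* encodes alpha 1, the catalytic isoform found in most tissues. Its representing probe read 3.64, 3.63 and 3.49 in the controls, 3.75, 3.75 and 3.62 with GR24, 3.58, 3.62 and 3.65 with pinosylvin, and 3.79, 3.68 and 3.71 with resveratrol. The group means spanned 0.14, and no difference between groups passed. The log2 changes were 0.12 with GR24 (interval -0.03 to 0.27, adjusted p = 0.157), 0.03 with pinosylvin (-0.12 to 0.18, 0.849) and 0.14 with resveratrol (-0.01 to 0.29, 0.206). Between pinosylvin and resveratrol the difference was -0.11 (-0.26 to 0.04, adjusted p = 0.327). The GR24 difference from the controls did pass with quantile normalization (0.22, adjusted p = 0.00642) and in the series table (0.22, 0.00619). So did GR24 minus pinosylvin, 0.09 in limma (adjusted p = 0.275), with quantile normalization (0.18, 0.0199) and in the series table (0.15, 0.0463).

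The second *Prkaa1* probe gave another picture. It read -1.0, -1.23 and -0.90 in the controls and -0.16, 0.04 and -0.25 with GR24, against -1.0, -0.93 and -0.96 with pinosylvin and -1.09, -0.89 and -0.93 with resveratrol. Only the GR24 arrays stood apart, above all 9 others. By this probe *Prkaa1* rose by 0.92 with GR24 (interval 0.69 to 1.15, adjusted p = 2.51e-05), by 1.06 on slide 1 and by 0.64 on slide 2. The probes of *Prkaa1* therefore disagreed on whether GR24 changed its RNA, and which RNA forms each detects was not tested.

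Among the beta subunits, which hold the complex together and bind glycogen, *Prkab1* passed with none of the compounds in limma. Its levels were 4.03, 4.18 and 3.90 in the controls, 4.24, 4.11 and 4.12 with GR24, 4.13, 4.26 and 4.13 with pinosylvin, and 4.06, 3.91 and 3.94 with resveratrol. The log2 changes were 0.12 with GR24 (interval -0.07 to 0.31, adjusted p = 0.263), 0.13 with pinosylvin (-0.06 to 0.32, 0.345) and -0.07 with resveratrol (-0.26 to 0.12, 0.677). The GR24 difference passed in 5 of 15 processing alternatives, among them quantile normalization (adjusted p = 0.0333) and the series table (0.0420). Pinosylvin minus resveratrol was 0.20 (0.01 to 0.39, adjusted p = 0.149), the arrays not overlapping. GR24 minus resveratrol was 0.19 (adjusted p = 0.0889), also without overlap. It passed in several processing alternatives, among them quantile normalization (0.25, 0.0155), the series table (0.23, 0.0271) and the slide as a block (0.19, 0.0441).

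*Prkab2*, the beta isoform abundant in skeletal muscle, had probes with opposite changes. The representing probe read 1.59, 1.62 and 1.32 in the controls, 1.19, 1.15 and 0.94 with GR24, 1.76, 1.78 and 1.79 with pinosylvin, and 1.59, 1.35 and 1.29 with resveratrol. GR24 arrays were the lowest and pinosylvin arrays the highest, while control and resveratrol arrays overlapped. By this probe *Prkab2* fell by 0.41 with GR24 (interval -0.65 to -0.17, adjusted p = 0.00730), by 0.43 on slide 1 and by 0.38 on slide 2. The changes with pinosylvin, 0.27 (0.03 to 0.51, adjusted p = 0.123), and with resveratrol, -0.10 (-0.34 to 0.14, 0.623), did not pass. With the replicate number as a block the pinosylvin difference passed (adjusted p = 0.0377), as it did with the slide as a block (0.0310).

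The second *Prkab2* probe carries a curated RefSeq accession and the representing probe a different, predicted one. The second probe read -1.75, -1.73 and -2.13 in the controls and -1.12, -0.96 and -1.11 with GR24. It read -1.45, -1.37 and -1.57 with pinosylvin and -1.56, -1.65 and -1.88 with resveratrol. Here GR24 arrays were the highest of all and control arrays included the lowest. By this probe *Prkab2* rose by 0.80 with GR24 (interval 0.53 to 1.07, adjusted p = 0.000224), opposite to the first probe, and by 0.40 with pinosylvin (0.13 to 0.67, adjusted p = 0.0471). The pinosylvin call was kept only without control replicate 2 or resveratrol replicate 3, and the highest adjusted p was 0.150, without pinosylvin replicate 2. No direction can be given for *Prkab2* as a gene with GR24.

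Pinosylvin and resveratrol differed for *Prkab2* by 0.37 at the representing probe (interval 0.13 to 0.61, adjusted p = 0.0453) and by 0.24 at the second (-0.04 to 0.51, 0.243). The first call rested on few arrays, and was kept only without control replicate 2, resveratrol replicate 1, control replicate 3 or GR24 replicate 3. Its adjusted p reached 0.145 without resveratrol replicate 3. It was lost also with normexp and the 75th percentile (0.0837), with no filter (0.129), with only those 6 arrays (0.0602), on slide 1 (0.0788) and as the mean over probes (0.0953). GR24 minus resveratrol at the representing probe, -0.31 (adjusted p = 0.0326), was lost without resveratrol replicate 1 (0.125), GR24 replicate 2 (0.0501) or GR24 replicate 3 (0.111). It was lost also with quantile normalization (0.0503), no filter (0.0854), only those 6 arrays (0.0630) and the percentile over spots (0.0786), and reversed to 0.16 as the mean over probes (0.252).

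**Figure D2:**
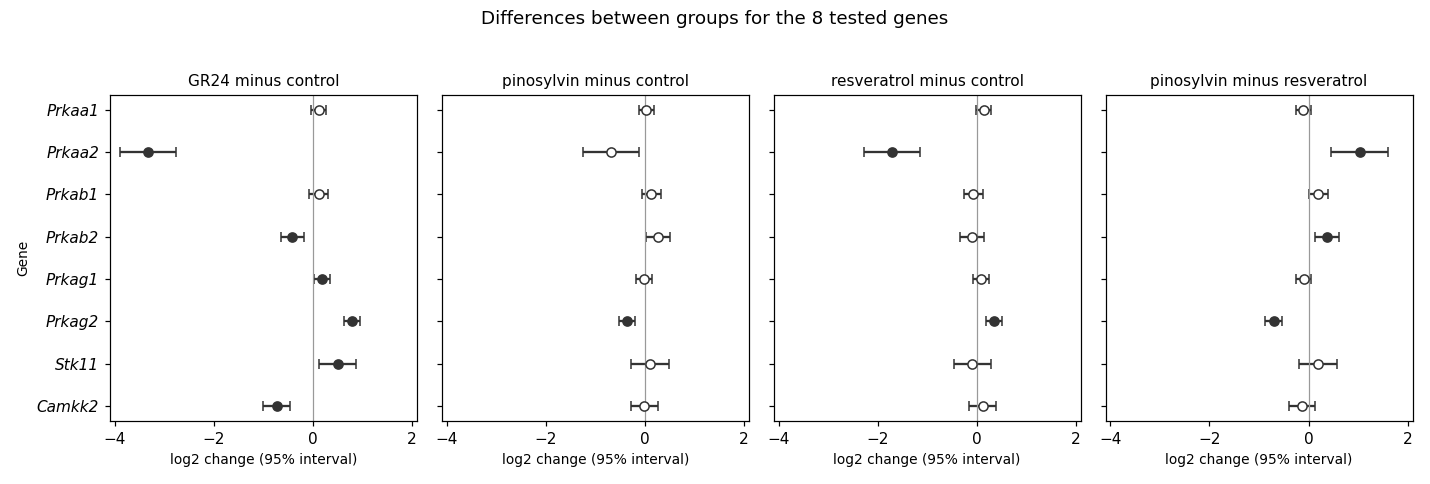
Log2 change of the 8 tested genes, each by its representing probe, for each compound minus the control and for pinosylvin minus resveratrol. Points are limma estimates from 3 arrays per group, bars are 95% intervals without adjustment, and filled points passed the adjusted threshold. *Prkag2* passed in all 4 comparisons, at 0.79, -0.36, 0.34 and -0.71, and *Prkaa2* was not well above background with GR24 or resveratrol, so its points there are not measured changes.

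The gamma subunits bind AMP, ADP and ATP. Among them *Prkag2*, whose mutations in people are known to cause heart muscle disease with glycogen storage, changed with each compound by its representing probe. Its representing probe read -2.0, -2.06 and -2.02 in the controls, -1.22, -1.13 and -1.36 with GR24, -2.40, -2.40 and -2.38 with pinosylvin, and -1.81, -1.64 and -1.61 with resveratrol. The 4 groups did not overlap anywhere, in the order GR24, resveratrol, control and pinosylvin from high to low.

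*Prkag2* rose by 0.79 with GR24 (interval 0.62 to 0.95, limma adjusted p = 7.54e-06) and by 0.34 with resveratrol (0.18 to 0.51, adjusted p = 0.0107). With pinosylvin it fell by 0.36 (-0.53 to -0.20, adjusted p = 0.00796). On slide 1 the changes were 0.85, 0.31 and -0.37, and on slide 2 they were 0.66, 0.41 and -0.36, in that order. The pinosylvin call was lost with normexp background correction (change -0.19, adjusted p = 0.0873, or -0.21 and 0.0532 after quantile normalization). By this probe the stilbenes thus moved *Prkag2* in opposite directions in limma. Their direct difference was -0.71 (interval -0.87 to -0.54, adjusted p = 0.000201), a 1.63-fold higher signal with resveratrol. It passed in each of the 15 processing alternatives applied to this probe and with each array left out.

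At the second *Prkag2* probe the levels were -4.63, -4.71 and -4.78 in the controls, -3.52, -3.83 and -3.82 with GR24, -5.14, -5.79 and -5.21 with pinosylvin, and -4.89, -4.61 and -4.63 with resveratrol. GR24 arrays were again the highest and pinosylvin arrays the lowest, but resveratrol and control arrays overlapped. The probe rose by 0.98 with GR24 (interval 0.62 to 1.34, adjusted p = 0.000434), and with resveratrol its change was 0.00 (-0.37 to 0.36, adjusted p = 0.994). With pinosylvin, where no array was well above background, it was at least 1.40-fold lower than the control (adjusted p = 0.0176), a call lost without control replicate 1 (0.0614). It was kept in 6 of 14 processing alternatives, adjusted p reaching 0.341. The rise of *Prkag2* with resveratrol therefore rests on the representing probe, and as the mean over probes it was 0.17 and did not pass (adjusted p = 0.323). Resveratrol stood at least 1.39-fold above pinosylvin at the second probe (adjusted p = 0.0209), which was lost without resveratrol replicate 2 (0.0772) or resveratrol replicate 3 (0.0709) and kept in 9 of 14 processing alternatives, adjusted p reaching 0.537.

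*Prkag1*, the widely expressed gamma isoform, read 1.67, 1.67 and 1.55 in the controls, 1.89, 1.80 and 1.75 with GR24, 1.66, 1.64 and 1.56 with pinosylvin, and 1.81, 1.69 and 1.65 with resveratrol. GR24 arrays lay above control and pinosylvin arrays without overlap, and the other groups overlapped. It rose by 0.18 with GR24 (interval 0.02 to 0.34, adjusted p = 0.0483), the smallest change that passed among these genes. The call was kept only without resveratrol replicate 1 or GR24 replicate 3, and its adjusted p reached 0.168 without GR24 replicate 1. It was also lost with normexp and the 75th percentile (0.142), with no filter on dim probes (0.150), on slide 1 alone (0.0768) and when only those 6 arrays were fitted (0.108). Changes with pinosylvin, -0.01 (-0.17 to 0.15), and resveratrol, 0.08 (-0.07 to 0.24), and the stilbene difference of -0.09 (-0.25 to 0.06) did not pass.

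*Prkag3*, the gamma isoform known from fast glycolytic muscle, was well above background on 1 of the 12 arrays, a control array, and was not tested. Its signals read -4.94, -4.78 and -4.97 in the controls, -7.12, -6.70 and -7.16 with GR24, -5.38, -4.91 and -4.77 with pinosylvin, and -6.85, -7.31 and -6.79 with resveratrol. But for that 1 array these signals were not well above background, and no difference is read from them.

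The upstream kinases were both tested. *Stk11* encodes LKB1, the constitutively active kinase that phosphorylates AMPK in muscle. Its representing probe read -1.22, -1.10 and -1.53 in the controls, -0.63, -0.88 and -0.81 with GR24, -1.14, -0.96 and -1.44 with pinosylvin, and -1.07, -1.40 and -1.63 with resveratrol. GR24 arrays were above all others, and the other 3 groups overlapped. *Stk11* rose by 0.51 with GR24 (interval 0.13 to 0.88, adjusted p = 0.0255), by 0.40 on slide 1 and by 0.71 on slide 2.

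The *Stk11* call was lost without GR24 replicate 1 (0.44, adjusted p = 0.0885) or control replicate 3 (0.38, 0.0963). It was lost also with no filter on dim probes (0.0613) and as the mean over probes (0.42, 0.0838). The second *Stk11* probe read -4.47, -3.92 and -4.63 in the controls and -3.73, -3.95 and -4.35 with GR24, which overlap. Its difference of 0.33 (interval -0.30 to 0.96, adjusted p = 0.360) did not pass. Changes at the representing probe were 0.10 with pinosylvin (-0.27 to 0.48, adjusted p = 0.761) and -0.09 with resveratrol (-0.46 to 0.29, 0.822), and their difference was 0.19 (-0.19 to 0.57, 0.529). GR24 minus pinosylvin for *Stk11*, 0.40, did not pass (adjusted p = 0.0657), a call that held in 6 of 15 processing alternatives. It passed in the other 9, among them the series table (0.0463), the replicate number as a block (0.0149) and the slide as a block (0.0110), and also without resveratrol replicate 1 (0.0446) and without pinosylvin replicate 2 (0.0415). GR24 minus resveratrol was 0.59 (adjusted p = 0.0132), a call lost without GR24 replicate 1 (0.0516) or resveratrol replicate 3 (0.0550). At the second probe this difference was 0.64 with overlapping arrays and did not pass (adjusted p = 0.085), though it did without resveratrol replicate 1 (0.88, 0.026).

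*Camkk2*, the calcium-dependent upstream kinase, read -3.58, -3.24 and -3.37 in the controls and -4.13, -4.15 and -4.12 with GR24. It read -3.57, -3.50 and -3.16 with pinosylvin and -3.33, -3.14 and -3.36 with resveratrol. GR24 arrays were tightly grouped below all 9 others, which overlapped. *Camkk2* fell by 0.73 with GR24 (interval -1.0 to -0.46, adjusted p = 0.000411), by 0.73 on slide 1 and by 0.74 on slide 2, and passed in each of 15 processing alternatives and with each array left out. With normexp the fall was as small as 0.32. GR24 was also below pinosylvin, by 0.72 (adjusted p = 0.000489), and below resveratrol, by 0.85 (adjusted p = 0.000175). With pinosylvin the change was -0.01 (-0.28 to 0.26, adjusted p = 0.972), with resveratrol 0.12 (-0.15 to 0.39, 0.586), and the stilbene difference -0.13 (-0.40 to 0.14, 0.541).

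In direct comparisons between compounds, 3 of the 8 genes passed for pinosylvin minus resveratrol, against 14.5% of all tested probes. *Prkaa2* and *Prkab2* were higher with pinosylvin (background 7.68%) and *Prkag2* was lower (6.85%). Without pinosylvin replicate 1, pinosylvin replicate 3 or resveratrol replicate 3 the count was 1. For GR24 minus pinosylvin 5 of 8 passed (background 56.4%), and for GR24 minus resveratrol 5 of 8 passed (background 51.4%). The latter count includes *Prkaa2*, which was well above background on no array of either group and is not read as a difference. In the processing alternatives the count ran from 4 to 8 for GR24 minus pinosylvin and from 4 to 7 for GR24 minus resveratrol. *Camkk2* was lower with GR24 and *Prkag2* higher in both, and *Prkaa2* was lower with GR24 than with pinosylvin. *Prkab2* was lower with GR24 in both by its representing probe and higher in both by its second probe. At the second probe the differences were 0.40 from pinosylvin (adjusted p = 0.0167) and 0.63 from resveratrol (0.00133), the former call being lost without GR24 replicate 2 (0.0619) or pinosylvin replicate 3 (0.0595). *Prkag1* was higher with GR24 than with pinosylvin, by 0.19 (adjusted p = 0.0391), a call kept only without resveratrol replicate 1, control replicate 2, control replicate 3, GR24 replicate 3 or resveratrol replicate 3, the highest value being 0.141 without GR24 replicate 1. It was lost also with normexp and the 75th percentile (0.0589), no filter (0.128), only those 6 arrays (0.0683) and on slide 1 (0.0534). Pinosylvin and resveratrol were the 1 pair of related compounds at the same dose and time. A p that misses the threshold, as for *Prkaa1*, *Prkab1*, *Prkag1*, *Stk11* and *Camkk2*, does not show that they act alike.

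The summed signal of myotube markers was low with GR24 and resveratrol, as *Prkaa2* was. With pinosylvin the sum was not low, while the *Prkaa2* arrays lay below the controls, a difference of -0.68 that did not pass. Of 9 markers 8 had a named probe, all above background on every array, led by the embryonic myosin gene *Myh3*. The log2 of their summed signal was 9.54, 9.66 and 9.45 in the controls, 8.23, 8.17 and 8.15 with GR24, 9.68, 9.74 and 9.64 with pinosylvin, and 9.25, 9.28 and 9.19 with resveratrol. It was lowest with GR24 and next lowest with resveratrol, with no overlap between those groups and the controls. With GR24 7 of 8 markers fell (median -2.5), from -0.94 for the troponin gene *Tnnt3* to -5.83 for the myogenic factor gene *Myog*. With resveratrol 5 of 8 fell (median -0.33), and with pinosylvin 2 rose, *Myog* by 0.73 and *Tnnt3* by 0.54. In the processing alternatives, 2 to 7 fell with resveratrol, while with pinosylvin 1 to 4 rose and 0 to 1 fell. The resveratrol count was 2 without control replicate 2 or resveratrol replicate 3, and 3 without control replicate 1, pinosylvin replicate 1, resveratrol replicate 1 or pinosylvin replicate 2. Compared directly, 7 of 8 markers were higher with pinosylvin than with resveratrol (median 0.48), as were 873 of 10741 named genes. That count was 6 without control replicate 1, GR24 replicate 1 or 2, pinosylvin replicate 1 or 2, or resveratrol replicate 1 or 3, and 8 without control replicate 3. The part of myotube content in the *Prkaa2* values, also between pinosylvin and resveratrol, was not tested.

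Markers of other cells gave mixed values, where 62.8%, 18.4% and 18.9% of named genes passed with GR24, pinosylvin and resveratrol. Of 6 tested markers of undifferentiated muscle cells, 2 rose and 2 fell with GR24, 1 rose and 3 fell with pinosylvin and 1 rose and 1 fell with resveratrol, and the level of their sum, led by *Vim*, was 7.33 to 7.49 in the controls, 6.44 to 6.60 with GR24, 6.88 to 7.03 with pinosylvin and 6.75 to 6.90 with resveratrol. Of 4 fibroblast markers, led by *Col1a1*, 3 fell with GR24, 2 with pinosylvin and 1 with resveratrol, and *Pdgfra* rose with each, by 0.23, 0.43 and 0.35. *Col1a1* fell with each compound, *Thy1* with GR24 and pinosylvin, and *Dcn* with GR24. The *Dcn* call was lost without control replicate 1, GR24 replicate 1, control replicate 3 or GR24 replicate 3, with adjusted p up to 0.129. The *Pdgfra* call with GR24 was lost without GR24 replicate 1, GR24 replicate 2 or control replicate 3, with adjusted p up to 0.0643. Of the adipocyte markers 1 of 3, *Cebpa*, was tested and rose by 1.18, 0.32 and 0.43 with GR24, pinosylvin and resveratrol, and among macrophage markers *Cd68* rose by 2.67 with GR24 while *Csf1r* did not pass and *Ptprc* was not tested. Of 3 endothelial markers only *Cdh5* was tested and did not pass, and of 3 neuronal markers none was above background on any array.

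Over the 12 arrays, the named genes with the profile nearest to *Prkag2*, by root mean square distance of levels centred per gene, were *Rab3d* (0.0962), *Mtfr1* (0.114) and *Psmd5* (0.119), among 10736 genes compared. Group means of *Rab3d* differed from its control by 0.74, -0.36 and 0.22 with GR24, pinosylvin and resveratrol. None are given for *Prkaa2*, which was not well above background on 7 of the 12 arrays.

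Promoter sequences were available for 8 of the 9 genes, from RefSeq (GRCr8), and *Camkk2* had no entry. Shown are those of *Prkaa2*, which fell with GR24 and resveratrol, and of *Prkag2*, which changed with each compound at its representing probe. *Prkag2* has 2 annotated starts. Each sequence is the 250 bases before the start, 5′ to 3′ on the strand of the gene. Capitals mark the E-box, CANNTG, which reads the same on both strands and was found in 65.5% of 33469 promoters of this length.
Prkaa2, chr5:125108325-125108574, minus strand: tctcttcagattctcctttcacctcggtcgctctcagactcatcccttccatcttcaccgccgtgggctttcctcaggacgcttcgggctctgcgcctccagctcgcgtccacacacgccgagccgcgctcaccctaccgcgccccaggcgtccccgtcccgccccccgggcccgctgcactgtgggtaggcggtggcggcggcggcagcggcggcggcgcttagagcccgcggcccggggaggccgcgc
Prkag2, chr4:10744445-10744694, plus strand: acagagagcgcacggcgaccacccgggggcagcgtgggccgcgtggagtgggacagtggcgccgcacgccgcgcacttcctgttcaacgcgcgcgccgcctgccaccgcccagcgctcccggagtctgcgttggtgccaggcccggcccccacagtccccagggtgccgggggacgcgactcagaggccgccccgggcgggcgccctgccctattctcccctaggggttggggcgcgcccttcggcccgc
Prkag2, chr4:10939230-10939479, plus strand: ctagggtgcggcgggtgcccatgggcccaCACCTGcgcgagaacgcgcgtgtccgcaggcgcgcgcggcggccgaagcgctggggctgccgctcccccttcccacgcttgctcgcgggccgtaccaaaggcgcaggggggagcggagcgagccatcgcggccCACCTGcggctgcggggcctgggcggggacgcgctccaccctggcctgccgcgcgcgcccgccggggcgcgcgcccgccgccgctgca

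The E-box letters occurred 0 times in the *Prkaa2* window, and 0 and 2 times at the starts of *Prkag2*. The core of the antioxidant response element, TGACNNNGC on either strand, was in 10.1% of all promoters and in none of these 3 windows, and the MEF2 core was in 3.0% and in none of these 3. Among the other members *Prkab2* had the antioxidant core 1 time. The share of G and C was 72.8% for *Prkaa2* and 77.2% and 80.8% for *Prkag2*, against a median of 51.2% over all promoters. A match is a description of the sequence and not a binding site.

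The genes around AMPK were taken from lists, each gene represented as above. Partners of the upstream kinases are the LKB1 cofactors *Strada*, *Stradb*, *Cab39* and *Cab39l*, and the kinases *Camkk1* and *Map3k7*, which can phosphorylate AMPK. With GR24 5 of 6 rose and none fell, with a median change of 0.32, against 0.078 over the 10741 named genes tested, of which 3874 rose and 2869 fell. *Stradb* read -0.63, -0.81 and -0.93 in the controls and 0.10, 0.16 and -0.25 with GR24, a rise of 0.80 (adjusted p = 0.000743). *Camkk1* read -1.85, -1.87 and -2.0 in the controls and -1.02, -1.22 and -1.21 with GR24, a rise of 0.75 (adjusted p = 9.18e-05), whereas *Camkk2* had fallen. *Cab39l*, *Map3k7* and *Strada* rose by 0.36, 0.29 and 0.21. Without GR24 replicate 1 or control replicate 3 the count was 3, the calls of *Map3k7* (adjusted p = 0.0534 and 0.050) and *Strada* (0.0748 and 0.0741) being lost. *Strada* was lost also without GR24 replicate 2 (0.0576).

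With pinosylvin 0 of these 6 partners passed in limma and in each of 15 processing alternatives, where 18.4% of named genes passed in limma, about 1 of 6. With resveratrol (18.9% of named genes) 2 of 6 passed. *Cab39l* rose by 0.33 (adjusted p = 0.0296) and *Strada* by 0.22 (adjusted p = 0.0448). *Strada* kept that call only without GR24 replicate 3, and *Cab39l* lost it without control replicate 1 (0.101), resveratrol replicate 1 (0.0869), resveratrol replicate 2 (0.104) or control replicate 3 (0.0837). Between pinosylvin and resveratrol 0 of 6 passed (16.4% of named genes), with differences from -0.20 to 0.12, while 2 were lower with pinosylvin when the replicate number or the slide was a block. Arrays of *Cab39l* (-0.20, adjusted p = 0.183) and *Strada* (-0.14, 0.206) did not overlap between the 2 compounds.

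Regulators of AMPK include the folliculin complex, sestrins and phosphatases. With GR24 7 of 11 tested rose and 1 fell, with a median change of 0.53, where 62.8% of named genes passed. *Flcn*, which encodes folliculin, read 3.30, 3.43 and 3.18 in the controls, 4.30, 4.22 and 4.19 with GR24, 3.74, 3.75 and 3.80 with pinosylvin, and 3.74, 3.51 and 3.54 with resveratrol. It rose with each compound, by 0.93, 0.46 and 0.30 (adjusted p = 4.77e-06, 0.00385 and 0.0349), and its partner genes *Fnip1* and *Fnip2* rose with GR24 and pinosylvin. The resveratrol call of *Flcn* was lost without control replicate 1 (0.0921), pinosylvin replicate 1 (0.0518), resveratrol replicate 1 (0.122), pinosylvin replicate 2 (0.0531), control replicate 3 (0.102) or resveratrol replicate 3 (0.0584). The scaffold gene *Axin1* rose by 0.86 with GR24 (adjusted p = 3.34e-05). The gene that fell with GR24 was the phosphatase gene *Ppm1e*, by 0.70 (adjusted p = 0.000170).

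*Sesn3*, a sestrin gene, read -3.60, -3.53 and -3.51 in the controls, -3.02, -3.0 and -3.01 with GR24, -2.75, -2.45 and -3.08 with pinosylvin, and -2.12, -2.30 and -2.32 with resveratrol. All treated arrays were above all controls, with resveratrol the highest. It rose by 1.30 with resveratrol (adjusted p = 0.000112) and by 0.79 with pinosylvin (adjusted p = 0.00239), and pinosylvin was below resveratrol by -0.51 (interval -0.80 to -0.22, adjusted p = 0.0259). That call was lost without pinosylvin replicate 1, resveratrol replicate 1, resveratrol replicate 2 or resveratrol replicate 3, with adjusted p up to 0.0849. In the same comparison *Fnip2* was higher with pinosylvin, by 0.36 (adjusted p = 0.0428). Thus 2 of 11 regulators passed between the stilbenes, where 16.4% of named genes did. This count was 0 to 3 in the processing alternatives and 0 to 2 with an array left out. In all, 4 of 11 regulators rose with pinosylvin and 2 of 11 with resveratrol, and none fell with either. Of 10741 named genes, 923 rose with pinosylvin and 927 with resveratrol, and 1049 and 1104 fell.

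Other kinases that depend on LKB1 were split with GR24, 3 of 9 tested being higher and 3 lower, where 62.8% of named genes passed. *Nuak1*, on no GR24 array well above background, was at least 4.03-fold lower (control levels -3.40, -3.15 and -3.31, GR24 signals -5.19, -6.07 and -5.07, adjusted p = 1.08e-05). *Sik1*, a salt-inducible kinase gene, fell by 1.57 (adjusted p = 8.10e-05), from -0.31, 0.18 and -0.27 in the controls to -1.73, -1.96 and -1.40. *Mark3* rose by 0.83 (adjusted p = 1.30e-05). The call of *Mark2* (0.28, adjusted p = 0.0266) was lost without control replicate 1 (0.0787), control replicate 2 (0.0792) or GR24 replicate 2 (0.101), and that of *Sik3* (0.23, 0.0466) was kept only without GR24 replicate 3 or pinosylvin replicate 3. *Brsk1*, at least 1.81-fold lower, lost its call with normexp and in the series table, with adjusted p up to 0.436. With pinosylvin or resveratrol 0 of 9 passed in limma, where 18.4% and 18.9% of named genes did. The count was 1 in some processing alternatives, and 1 with pinosylvin without GR24 replicate 2 and with resveratrol without resveratrol replicate 1. *Sik1* was higher with pinosylvin than with resveratrol by 0.92 (interval 0.46 to 1.38, adjusted p = 0.0144), a call lost without pinosylvin replicate 2 or resveratrol replicate 2, with adjusted p up to 0.0618.

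**Figure D3:**
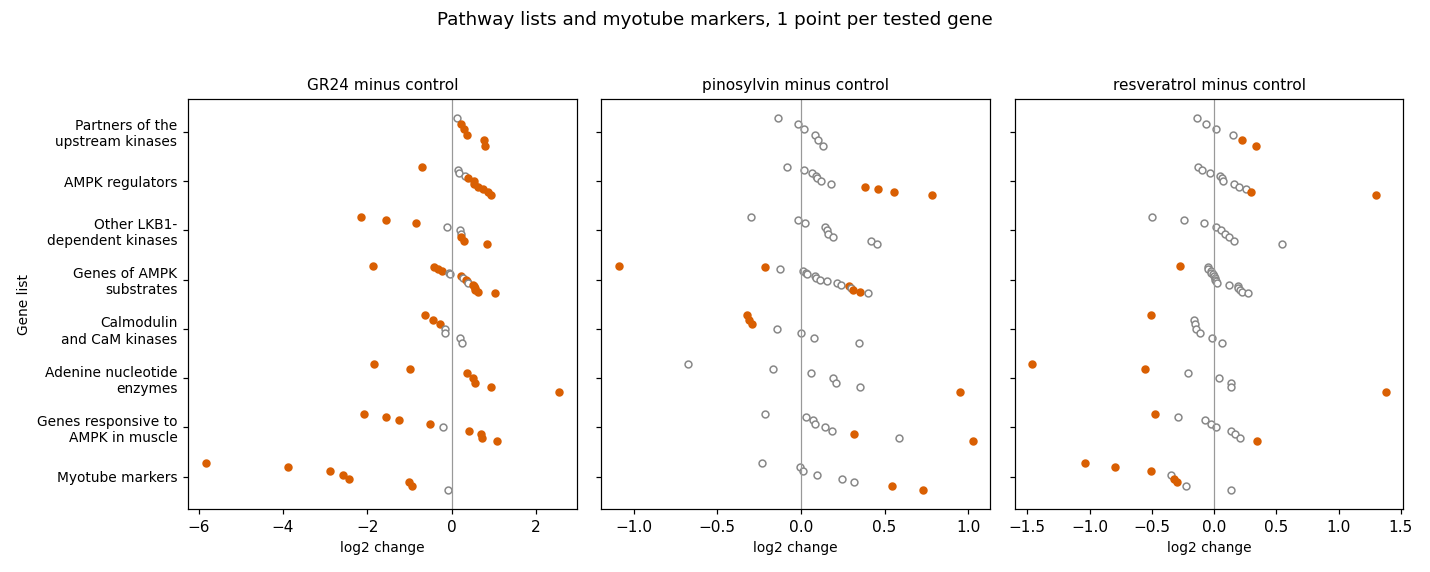
Log2 change of every tested gene in 7 pathway lists and of the myotube markers, for each compound minus the control, by limma from 3 arrays per group. Each point is a gene, filled orange where it passed the adjusted threshold, and the 3 panels have axes of different range. For the adenine nucleotide enzymes, 7 of 7 points passed with GR24.

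Of the genes whose proteins AMPK phosphorylates, 9 of 17 tested rose with GR24, as did 3874 of 10741 named genes, and the median change was 0.34. *Lipe*, which encodes hormone-sensitive lipase, and *Pik3c3*, a lipid kinase of autophagy, rose by 1.01 and 0.63 (adjusted p = 0.000512 and 0.000322), *Lipe* being well above background on 2 of 3 control arrays. *Tbc1d1*, a regulator of glucose transporter traffic, fell by 0.42, *Mff* by 0.33 and *Becn1* by 0.24. The *Becn1* call was lost without control replicate 1 (0.0821), control replicate 2 (0.0512), GR24 replicate 2 (0.0505) or GR24 replicate 3 (0.0717).

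With pinosylvin 3 of these 17 substrate genes rose, as did 923 of 10741 named genes, and 0 to 5 did in the processing alternatives. The 3 were *Srebf1* (0.35), *Ulk1* (0.31) and *Gys1* (0.29), and *Pfkfb3* fell by 0.21. With resveratrol none rose, and 0 to 3 did in the processing alternatives. *Pfkfb3* kept its call only without control replicate 2. *Srebf1* lost it without control replicate 1 (0.0930), pinosylvin replicate 2 (0.0564), control replicate 3 (0.0690) or pinosylvin replicate 3 (0.0743), and *Ulk1* without control replicate 1 (0.0531), pinosylvin replicate 1 (0.0951), pinosylvin replicate 2 (0.0930) or control replicate 3 (0.0927). The number that rose with pinosylvin was 2 without control replicate 1, pinosylvin replicate 1, control replicate 3 or pinosylvin replicate 3, and 1 without pinosylvin replicate 2. *Acacb* and *Ppargc1a*, well above background on no array, were not tested.

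Among genes of calmodulin, which activates CaMKK2, *Calm2* and *Calm3* fell with GR24, by 0.27 and 0.44 (adjusted p = 0.0127 and 0.000263). In limma 0 of the 4 tested calmodulin-dependent kinase genes passed, where 62.8% of named genes did. Of the 7 tested genes of this list, 3 passed with GR24 in limma, 3 to 5 in the processing alternatives and 3 to 4 with an array left out. Kinase genes thus passed in some alternatives. The fall of *Calm2* was lost with quantile normalization and in the series table, with adjusted p up to 0.197. With pinosylvin *Calm2* and *Camk1* fell by 0.32 and 0.31 (adjusted p = 0.0183 and 0.00745). The *Calm2* call was lost without pinosylvin replicate 1 (0.0649), pinosylvin replicate 2 (0.0744) or control replicate 3 (0.0569). With resveratrol, where 2 of 3 arrays were well above background, *Camk2b* fell by 0.51 (adjusted p = 0.0455), a call kept only without GR24 replicate 1, pinosylvin replicate 1, resveratrol replicate 1 or pinosylvin replicate 3.

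Enzymes of adenine nucleotides in the cell help set the AMP level that AMPK senses, and the list also holds *Nt5e*, whose enzyme acts outside the cell. With GR24 all 7 tested genes passed, 5 higher and 2 lower, where 62.8% of named genes passed, and *Nt5c1a* was not tested. *Ampd3*, an AMP deaminase gene, read -3.99, -4.06 and -4.44 in the controls, -1.55, -1.72 and -1.58 with GR24, -3.51, -3.92 and -4.01 with pinosylvin, and -2.77, -2.80 and -2.79 with resveratrol. It rose by 2.55 with GR24 (adjusted p = 1.43e-07) and by 1.38 with resveratrol (adjusted p = 0.000139). *Ampd1*, the deaminase gene of skeletal muscle, read -0.72, -0.74 and -0.98 in the controls, -1.75, -1.89 and -1.75 with GR24, 0.18, 0.10 and 0.16 with pinosylvin, and -1.20, -1.46 and -1.44 with resveratrol. The groups did not overlap, pinosylvin being above the controls and the other compounds below.

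*Ampd1* fell by 0.99 with GR24 (adjusted p = 7.62e-06) and by 0.55 with resveratrol (0.00270), and rose by 0.95 with pinosylvin (7.36e-05). The stilbenes moved it in opposite directions, with a difference of 1.51 (interval 1.30 to 1.72, adjusted p = 1.94e-05), in which the part of myotube content was not tested. For *Ampd3* the difference was -1.03 (interval -1.35 to -0.71, adjusted p = 0.00106). *Nt5e*, which encodes an ectonucleotidase, fell by 1.46 with resveratrol (0.00972) and was lower with GR24 (0.000496), where it was well above background on 1 of 3 arrays and no size is given. The adenylate kinase gene *Ak1* rose with GR24 by 0.51, *Ampd2* by 0.93 and *Adk* by 0.37.

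Genes known to respond to AMPK in muscle were again split with GR24, 4 of 9 tested being higher and 4 lower, where 62.8% of named genes passed. *Hk2*, hexokinase 2, read -2.54, -2.48 and -2.20 in the controls, -1.43, -1.30 and -1.29 with GR24, -1.37, -1.35 and -1.42 with pinosylvin, and -2.28, -2.70 and -2.30 with resveratrol. It rose by 1.07 with GR24 (adjusted p = 2.92e-05) and by 1.03 with pinosylvin (0.000278), and pinosylvin exceeded resveratrol by 1.05 (interval 0.78 to 1.32, adjusted p = 0.000361). *Slc2a4*, the insulin-responsive glucose transporter GLUT4, read 0.80, 0.74 and 0.71 in the controls, -0.47, -0.58 and -0.45 with GR24, 1.15, 1.03 and 1.01 with pinosylvin, and 0.73, 0.69 and 0.61 with resveratrol. It fell by 1.25 with GR24 (adjusted p = 9.01e-08) and rose by 0.31 with pinosylvin (0.00892), the latter call being lost when only those 6 arrays were fitted (0.0532).

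*Ucp3*, an uncoupling protein gene of muscle, was on no GR24 array well above background and was at least 3.06-fold lower (adjusted p = 1.82e-05). *Lpl*, which encodes lipoprotein lipase, fell by 1.57 with GR24 (4.18e-08) and by 0.47 with resveratrol (0.00167). The mitochondrial genes *Cs*, *Tfam* and *Esrra* rose with GR24 by 0.41, 0.69 and 0.72, while *Cycs* fell by 0.52. *Esrra* also rose with resveratrol, by 0.35 (0.00893). Between the stilbenes, *Slc2a4*, *Hk2*, *Ucp3* and *Lpl* were higher with pinosylvin and none was lower, a count of 4 of 9, beside 7 of 8 myotube markers that were also higher with pinosylvin. Of 10741 named genes 16.4% passed in this comparison, 873 being higher and 887 lower. *Ucp3* and *Lpl* were the unstable calls, and the count was 2 without pinosylvin replicate 1, 2 or 3 or resveratrol replicate 2 or 3, with adjusted p up to 0.0959 and 0.143. *Slc2a4*, *Ucp3* and *Lpl* fell with GR24 beside the myotube markers. The part of myotube content in these differences, with GR24 and between the stilbenes, was not tested.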

How the data were processed

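The intensity values are processed signals, from which the scanner software of the authors (Agilent Feature Extraction 12.0.0.7) had subtracted the background within each array. The log2 values of the series table, used as an alternative, were normalized by the authors and deposited without a statement of how. Of 58717 spots per array, 57.96% to 64.27% were well above background and 0 were saturated.

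Control spots were dropped, outlier spots set to missing, and spots of a probe averaged before scaling to the 75th percentile. limma 3.58.1 in R 4.3.3 fitted all 12 arrays with a mean per group, then eBayes and Benjamini-Hochberg adjustment at 0.05. The script was tested on simulated data.

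Named were all members, up to 2 genes per list and direction with the largest changes whose arrays did not overlap the controls (all, where 5 or fewer passed), and 3 profile neighbours of members spanning at least 1 (but for *Prkaa2*, dim on 7 of 12 arrays). Genes named in other places, such as markers, direct comparisons of pinosylvin with resveratrol and *Fnip1* and *Fnip2* with GR24, were chosen after their values were seen. A few genes within the rule are not reported here. The lists were partners of the upstream kinases, AMPK regulators, LKB1-dependent kinases, AMPK substrates, calmodulin and its kinases, adenine nucleotide enzymes, muscle genes responding to AMPK, and markers of myotubes, undifferentiated cells, fibroblasts, adipocytes, macrophages, endothelium and neurons. Members and lists were chosen with earlier results of these data known.

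Replicates with the same number deviated together in all 18 pairs between groups (r 0.191 to 0.744), which pairs them by the data and not by the labels. The lowest r was 0.36 for number 1, 0.191 for number 2 and 0.638 for number 3. Number 3 was alone on slide 2, so a shared slide and a shared experiment cannot be told apart there. Alternatives were quantile normalization, normexp (offset 50, on median signals, as the files hold no mean signal), the series table, other filters and percentiles, a fit restricted to 2 groups, blocks for replicate number or slide, slide 1 alone, eBayes with trend, outlier spots kept, the mean over probes and each array left out.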

Additional observations from a re-analysis of the deposited data

How the results depend on the processing

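Of 48 comparisons of members, 18 passed in no setting, and the other 30 were recomputed in up to 17 settings and with each of 12 arrays left out. Of 852 values, 402 and 320 kept direction and side of the threshold, 42 and 2 newly passed, 33 and 36 no longer passed, and 15 and 2 reversed, without and with an array left out. The percentile over spots, the series table with a block, the other probe of a gene and the list counts were chosen after seeing the data.

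GR24 minus resveratrol for *Prkaa1*, -0.02, reversed to 0.07 with quantile normalization, 0.08 with normexp and quantiles, 0.08 in the series table, 0.00 with the percentile over probes well above background on all arrays, 0.02 on slide 1, 0.41 as the mean over probes, 0.09 with the percentile over spots, 0.08 in the series table with the replicate block and 0.84 at the other probe, and ran from -0.04 to 0.02 with an array left out. *Prkab2* reversed as the mean over probes to 0.19 (GR24 minus control) and 0.16 (GR24 minus resveratrol), and at the other probe to 0.80, 0.63 and, for GR24 minus pinosylvin, 0.40. *Prkag2* with resveratrol was 0.00 at the other probe. Averaging over probes or changing the probe replaces the signal by construction, and for the rest the cause was not tested.

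With the replicate block, probes that passed were 6947 with pinosylvin, 6769 with resveratrol and 6323 for pinosylvin minus resveratrol, with the slide as a block 7074, 6869 and 6443, and in the series table with the replicate block 6540, 6641 and 5837. Members that passed with pinosylvin were then 2 in each, and the replicate block changed no call of a member but those of *Prkab2* with pinosylvin and *Stk11* for GR24 minus pinosylvin. With no filter the probes were 2409, 2680 and 1975, where more probes are tested, and with only the 6 arrays compared 2479 passed with pinosylvin. Pinosylvin minus resveratrol ran from 2148 to 3683 with an array left out. Members that passed with pinosylvin were 0 with normexp and either scaling. With resveratrol they were 1 when every array had to be well above background and 1 as the mean over probes. For pinosylvin minus resveratrol they were 1 with normexp and the 75th percentile, 1 with only the 6 arrays compared, 1 on slide 1, and 1 to 3 with an array left out. The cause was not tested.

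The percentile over spots moved the median of GR24 minus control from 0.0268 to 0.127 and that of GR24 minus resveratrol from 0.0244 to 0.135, and probes higher and lower in the latter from 6662 and 5811 (53.4%) to 8707 and 4875 (64.1%). Changes of *Prkaa2* and the second *Prkag2* probe are bounded by background, and 3 arrays per group limit small changes such as that of *Prkag1*.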
